A study of Mus musculus with 6 samples.

Results

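The Ms4a membrane proteins described here are encoded by 10 genes, Ms4a4a, Ms4a4b, Ms4a4c, Ms4a4d, Ms4a6b, Ms4a6c, Ms4a6d, Ms4a7, Ms4a8a and Ms4a14. They were chosen by name, as the rows of the deposited gene table whose Ensembl identifier carries one of these symbols in the GENCODE M21 annotation of the mouse genome build GRCm38, and they are 10 of the 54532 genes in that table. The choice was made with earlier results of these data known. The visceral (epididymis) fat of male C57BL/6J mice was compared between 3 samples on a normal diet (ND, 4.5% fat) and 3 samples on a high-fat diet (HFD, 60% fat), in a study that asked whether adipose tissue (AT) of obese mice holds cells like cancer-associated adipocytes. The diets ran for 16 weeks from 4 weeks of age, and all 6 samples carried the label of an untreated animal. RNA was taken from whole AT with no cell sort, and nothing states whether each sample came from 1 mouse, so the p-values measure the spread between these samples. The libraries held between 16996896 and 18859320 counts, and 3 counts, taken as the floor of detection, were worth 0.15 to 0.18 CPM (reads scaled for library size).

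Proteins of the MS4A family cross the membrane several times, with short ends inside the cell, and many of them sit beside signalling receptors at the surface of immune cells. The best known are the B cell antigen CD20, encoded by Ms4a1, and the beta chain of the mast cell IgE receptor, encoded by Ms4a2. Several of the genes described here are known from macrophages, the phagocytes that gather around dying adipocytes in obese AT, whereas Ms4a4b and Ms4a6b are better known from T cells.

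All 10 genes lay within 537.4 kb of chromosome 19, from 11067471 to 11604849 of GRCm38, and their order along the chromosome was Ms4a8a, Ms4a14, Ms4a7, Ms4a4a, Ms4a4c, Ms4a4b, Ms4a6c, Ms4a6b, Ms4a4d and Ms4a6d. Ms4a8a, Ms4a14, Ms4a7 and Ms4a6d were transcribed from the minus strand and the other 6 from the plus strand. The coding sequences ran from 654 bases in Ms4a6c to 873 bases in Ms4a8a, and that of Ms4a14 was far longer at 3699 bases. Some members were close copies of each other. The coding sequences of Ms4a4b and Ms4a4c were 91.8% identical, those of Ms4a4c and Ms4a4d 87.9%, and those of Ms4a4b and Ms4a4d 85.7%. Those of Ms4a6b and Ms4a6c were 85.3% identical, and those of Ms4a6b and Ms4a6d 81.3%. A read inside a run shared by a pair cannot be given to either gene. The longest shared run was 57 bases in Ms4a4c and Ms4a4d and 55 bases in Ms4a6b and Ms4a6c. The stretches around the longer runs of Ms4a4b with Ms4a4c and of Ms4a6b with Ms4a6d are printed, and capitals mark the bases that differ. In Ms4a4b and Ms4a4c the shared run measured 127 bases and lay across exons 5 and 6 of both transcripts, at chr19:11459161-11461265 and chr19:11419001-11421266 (GRCm38, plus strand). The 187 bases around it, from base 291 to base 477 of each coding sequence, differed at 8 positions.
Ms4a4b: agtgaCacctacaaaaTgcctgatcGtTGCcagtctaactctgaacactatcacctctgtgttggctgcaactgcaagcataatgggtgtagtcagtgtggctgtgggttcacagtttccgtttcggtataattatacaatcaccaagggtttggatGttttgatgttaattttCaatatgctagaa
Ms4a4c: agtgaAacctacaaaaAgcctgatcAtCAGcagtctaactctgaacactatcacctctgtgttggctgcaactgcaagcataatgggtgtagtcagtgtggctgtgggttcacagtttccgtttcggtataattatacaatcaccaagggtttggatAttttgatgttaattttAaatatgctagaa
In Ms4a6b and Ms4a6d the shared run measured 81 bases, at chr19:11520438-11521703 (plus strand, exons 3 and 4) and chr19:11601932-11603193 (minus strand, exons 2 and 3). The 141 bases around it, from base 70 to base 210 of each coding sequence, differed at 5 positions.
Ms4a6b: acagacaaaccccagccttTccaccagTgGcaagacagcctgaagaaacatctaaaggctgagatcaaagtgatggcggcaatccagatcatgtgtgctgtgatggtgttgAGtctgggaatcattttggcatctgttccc
Ms4a6d: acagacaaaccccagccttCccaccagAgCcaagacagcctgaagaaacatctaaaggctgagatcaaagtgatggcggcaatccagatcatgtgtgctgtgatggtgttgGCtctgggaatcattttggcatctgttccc

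Over whole transcripts the shared sequence was limited for most members. Of all 50-base words in the exons of a gene, 8.19% of those of Ms4a4c were also found in another gene, 3.57% of those of Ms4a6b, 2.54% of those of Ms4a6d and 2.40% of those of Ms4a4b. The share was at most 0.546% in Ms4a4d and Ms4a7, and it was 0 in Ms4a8a, Ms4a14 and Ms4a4a. Ms4a6c was the exception, since 51.4% of its words, 1028 of 2001, occurred elsewhere. Of these, 993 lay in BE692007, a transcript on the opposite strand whose exons overlap those of Ms4a6c. The library kit was not stated to keep strand, so reads of Ms4a6c and BE692007 that lie in these shared words cannot be told apart.

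Ms4a7, Ms4a6d and Ms4a6c were higher on HFD than on ND, by 6.91-fold, 6.42-fold and 2.43-fold. The other 7 members did not pass the test, although 5 of them had a positive log2 fold change. All 10 members had enough counts to be tested, and by edgeR's quasi-likelihood test, with Benjamini-Hochberg adjustment over 15751 genes and a threshold of 0.05 on the adjusted p-value, 3 were higher and 0 were lower. Of all genes tested, 9.85% were higher and 6.04% were lower. At an unadjusted p-value under 0.05 there were 6 members higher and 0 lower, and the share of all genes at that threshold was not counted. DESeq2 called 5 members higher and 0 lower. Over all genes DESeq2 called 2175 higher and 1786 lower, more than the 1552 and 951 of edgeR. The median log2 fold change of the 10 members was 0.79, against 0.01 over all genes. The members were chosen with earlier results of these data known, and of 14 further family genes looked for only 3 could be tested. These counts and the median therefore describe the 10 genes and not the whole family. In bulk AT a change in the number of cells that express a gene and a change in the RNA per cell cannot be told apart.

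The calls moved with single libraries. Without ND replicate 1 or without ND replicate 2 the count of members called higher was 0, with 4 and 5 members at an unadjusted p-value under 0.05 by the same edgeR test. It was 1, Ms4a7, without ND replicate 3 and also without HFD replicate 1, and it was 5 without HFD replicate 2, when Ms4a14 and Ms4a6b were called too. Without HFD replicate 3 the same 3 members were called. The number of all genes called higher, 1552 with every library, moved as well. It was 337 without ND replicate 1, 376 without ND replicate 2, 607 without ND replicate 3 and 380 without HFD replicate 1. It was 2368 without HFD replicate 2 and 1352 without HFD replicate 3. The log2 fold changes of Ms4a7 stayed between 2.15 and 3.14 when any library was left out, those of Ms4a6d between 1.95 and 3.05, and those of Ms4a6c between 0.97 and 1.47. ND replicate 3 stood apart from the rest. It held 751 counts of Epcam and 1090 of Foxj1, epithelial and ciliated cell genes with at most 6 counts in any other library, named after their values were seen, and the part of such cells in the members' values was not tested.

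Ms4a7, a gene known from macrophages, showed the largest fold change of the 10 members. It was read 171, 132 and 173 times on ND against 910, 446 and 1736 times on HFD. Each HFD library lay far above all ND libraries, and the HFD libraries differed among themselves far more than the ND libraries did. In CPM the level was 8.495 ± 0.795 on ND and 58.8 ± 37.3 on HFD (SD, n = 3 each), and the log2 fold change was 2.79 (standard error 0.46, edgeR adjusted p = 0.0120).

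Ms4a6d, another macrophage-expressed member, changed by nearly as much. It was read 168, 172 and 157 times on ND against 828, 410 and 1783 times on HFD, with the same order among the HFD libraries as Ms4a7. The diets did not overlap, and the level went from 8.95 ± 1.07 CPM to 57.4 ± 40.4 CPM (SD, n = 3 each). The log2 fold change was 2.68 (standard error 0.50, edgeR adjusted p = 0.0163).

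Ms4a6c rose less but more evenly. It gave 139, 117 and 134 counts on ND against 284, 204 and 404 on HFD, again with no overlap between the diets and with HFD replicate 3 highest. From 6.98 ± 0.441 CPM it went to 17.0 ± 5.63 CPM (SD, n = 3 each), and its log2 fold change was 1.28 (standard error 0.25, edgeR adjusted p = 0.0185). BE692007, on the opposite strand, was read 23, 20 and 53 times on ND against 117, 59 and 142 times on HFD (log2 fold change 1.83, edgeR adjusted p = 0.0370). Reads in the sequence shared by Ms4a6c and BE692007 cannot be told apart. The share of either transcript in the difference of Ms4a6c was not tested.

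**Figure D1:**
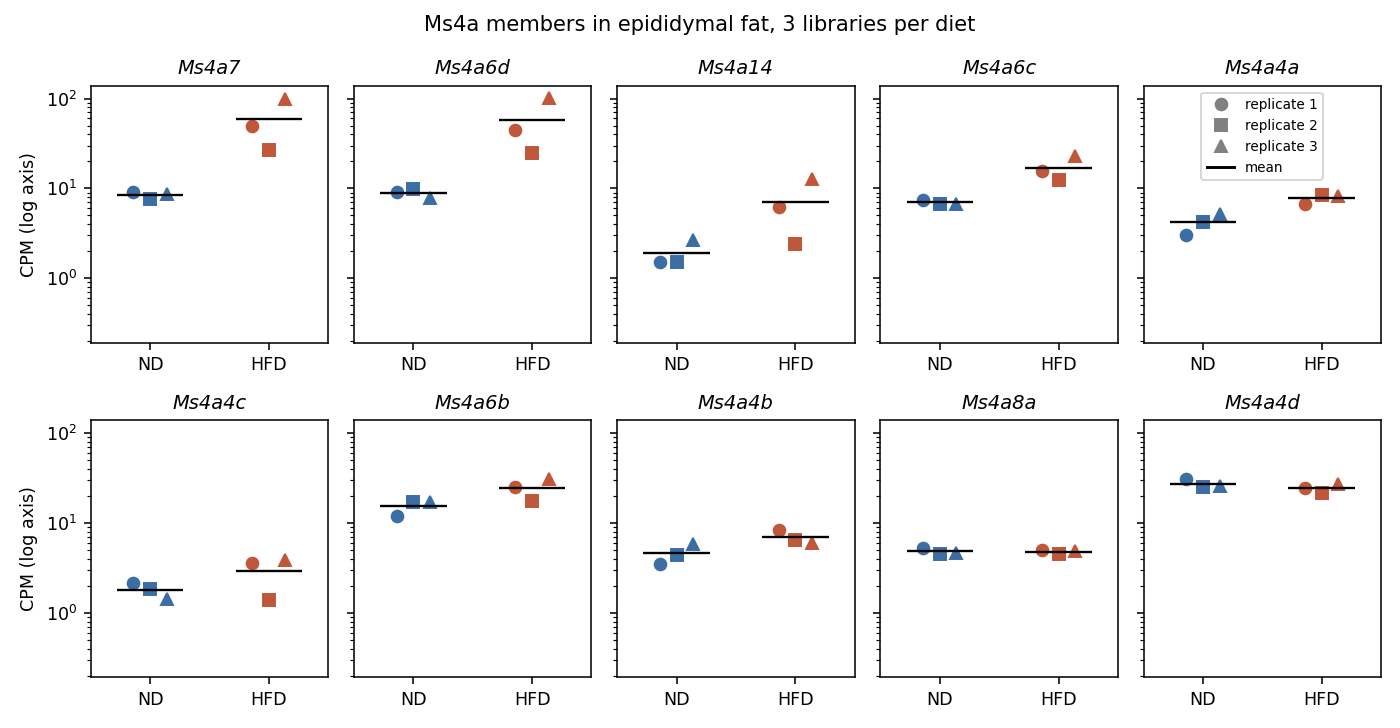
CPM of each Ms4a member (log axis) in the 3 ND and 3 HFD libraries of epididymal fat; each point is a library, its shape the replicate number, and the line the mean of a diet. The HFD points of Ms4a7 and Ms4a6d lie between 24.7 and 102.5 CPM, above every ND point of these genes, whereas those of Ms4a8a and Ms4a4d overlap with their ND points.

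Ms4a14, the member with the long coding sequence, and Ms4a4a, a surface protein of macrophages, did not pass the threshold. Ms4a14 was read 28, 26 and 54 times on ND against 114, 40 and 223 times on HFD. HFD replicate 2 fell below ND replicate 3, so the diets overlapped, and the log2 fold change was 1.90 with a 95% interval from 0.486 to 3.32 (edgeR adjusted p = 0.0723). Its log2 fold change was 1.16 without HFD replicate 3 and 2.32 without HFD replicate 2, where it was called (adjusted p = 0.0105). Ms4a4a was read 57, 74 and 105 times on ND against 123, 140 and 142 times on HFD, with no overlap. Its log2 fold change was 0.88 (95% interval 0.279 to 1.49, edgeR adjusted p = 0.0574). DESeq2 called both, at adjusted p-values of 0.0102 for Ms4a14 and 0.0138 for Ms4a4a.

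Ms4a6b and Ms4a4b, the members better known from T cells, were somewhat higher in the HFD libraries without passing the test. Ms4a6b was read 222, 295 and 341 times on ND against 465, 296 and 534 times on HFD. In CPM the lowest HFD value, 17.8, was only just above the highest ND value, 17.1, and the log2 fold change was 0.68 (95% interval 0.123 to 1.24, edgeR adjusted p = 0.0916). Ms4a4b was read 65, 77 and 118 times on ND against 153, 109 and 103 times on HFD. Its CPM values did not overlap either, with 5.89 in ND replicate 3 and 5.92 in HFD replicate 3, and the log2 fold change was 0.59 (95% interval -0.0455 to 1.22, edgeR adjusted p = 0.173).

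The 6 members whose CPM did not overlap between the diets, Ms4a7, Ms4a6d, Ms4a6c, Ms4a4a, Ms4a6b and Ms4a4b, were all higher on HFD. No overlap was found for 40.9% of all genes tested, and no overlap with HFD higher for 21.7%. Ms4a4c, the close copy of Ms4a4b, was read 40, 32 and 29 times on ND against 66, 23 and 67 times on HFD. HFD replicate 2 was its lowest library, and the log2 fold change was 0.70 with a 95% interval from -0.322 to 1.71 (edgeR adjusted p = 0.301).

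Ms4a8a and Ms4a4d had nearly the same level on both diets. Ms4a8a, known from alternatively activated macrophages, was read 99, 79 and 92 times on ND against 93, 76 and 84 times on HFD, or 4.83 ± 0.435 and 4.82 ± 0.252 CPM (SD, n = 3 each). The 95% interval of its log2 fold change ran from -0.503 to 0.498. Ms4a4d was read 567, 437 and 520 times on ND against 451, 357 and 472 times on HFD. The libraries overlapped, the log2 fold change was -0.16 and its 95% interval ran from -0.489 to 0.169 (edgeR adjusted p = 0.460), so a change of the size seen in Ms4a7 or Ms4a6d lay outside the intervals of both genes.

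Levels were compared between members per length of transcript, in FPKM. How reads in the exons that Ms4a6c shares with BE692007 were counted is not known. The level of Ms4a6c, and its share of the summed FPKM, depend on that. On ND, Ms4a4d stood alone at the top with 18.3 ± 1.99 FPKM (SD, n = 3). Ms4a6d with 5.24 ± 0.666, Ms4a4a with 5.10 ± 1.28, Ms4a6b with 3.48 ± 0.654 and Ms4a6c with 3.46 ± 0.236 followed, and each neighbour in this order overlapped with the next. Ms4a8a at 2.74 ± 0.258 and Ms4a7 at 1.94 ± 0.179 FPKM were each apart from their neighbours, Ms4a4c at 1.06 ± 0.214 and Ms4a4b at 0.888 ± 0.224 overlapped, and Ms4a14 was lowest at 0.475 ± 0.166. On HFD the order changed. Ms4a6d led with 33.3 ± 23.3 FPKM, from 14.3 in replicate 2 to 59.3 in replicate 3, ahead of Ms4a4d with 16.2 ± 1.86 and Ms4a7 with 13.3 ± 8.40. Ms4a4a with 9.34 ± 1.11, Ms4a6c with 8.34 ± 2.75 and Ms4a6b with 5.52 ± 1.45 FPKM came next, and the ranges of all neighbours down to Ms4a6b overlapped. Ms4a8a at 2.703 ± 0.1404 FPKM lay below Ms4a6b without overlap, and it overlapped with Ms4a14, which with Ms4a4c and Ms4a4b made up the lowest levels, from 1.77 to 1.32 FPKM.

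The FPKM of the 10 members summed to 43.6, 42.1 and 42.3 on ND against 83.2, 60.04 and 137 on HFD. The ND libraries were nearly equal, all HFD libraries were higher, and the means differed by 2.19-fold (exact permutation test, two-sided, p = 0.1, the smallest that 3 against 3 allows). The make-up of this sum differed between the diets. Ms4a4d made up 47.3%, 40.6% and 40.8% of it on ND against 19.7%, 23.8% and 13.1% on HFD. Ms4a6d went from a mean share of 12.3% to 32.9% and Ms4a7 from 4.54% to 13.3%, while Ms4a8a went from 6.40% to 3.22%. For each of these 4 genes the shares did not overlap between the diets, and the exact permutation p was 0.1, or 0.25 after Benjamini-Hochberg adjustment over the 10 members, so none passed a threshold of 0.05 and none could have. Ms4a4a had a mean share of 12.0% on ND and 11.3% on HFD (exact p = 0.9), and the exact p of the other 5 members lay between 0.2 and 0.5. Shares are tied to each other, since a higher share of one member lowers those of the rest.

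**Figure D2:**
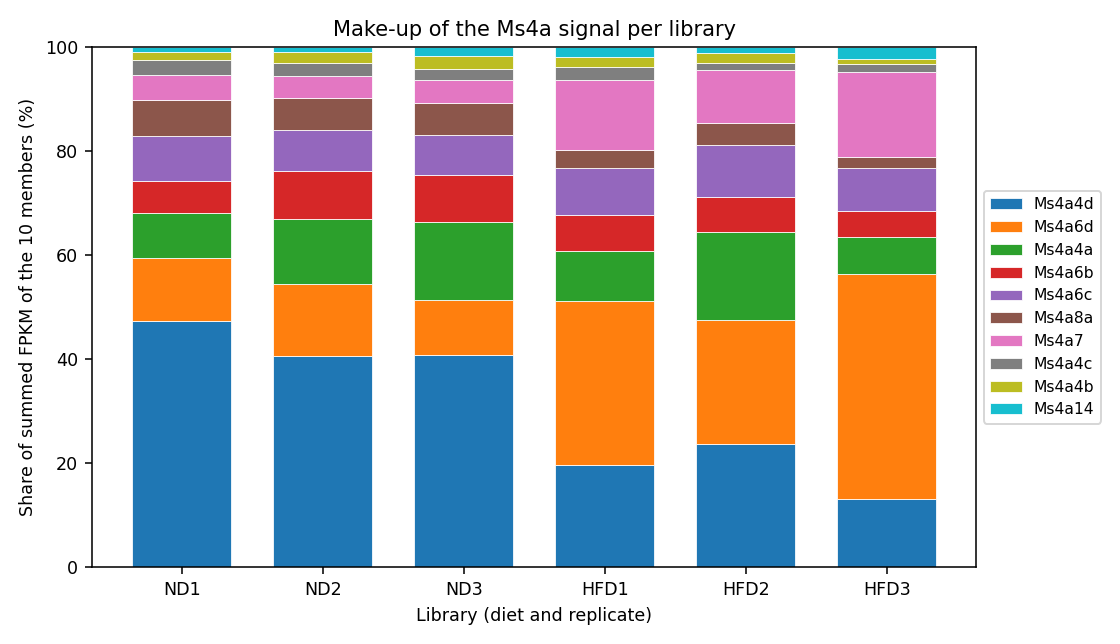
Share of each member in the summed FPKM of the 10 Ms4a members (percent), 1 stacked bar per library. Ms4a4d is the largest part of every ND bar, and Ms4a6d is the largest part of the bars of HFD replicates 1 and 3 and is level with Ms4a4d, both at 23.8%, in HFD replicate 2.

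Markers of macrophages were set beside the members in the same libraries. Of 13 general macrophage markers, 10 were higher on HFD and 0 were lower, with a median log2 fold change of 1.57, a log2 fold change of 2.91 for Adgre1 (the F4/80 antigen) and 3.72 for Cd68 (a lysosomal protein of phagocytes). The summed level of these markers ranged from 1861 to 1979 CPM on ND and from 4406 to 9721 CPM on HFD, and it was highest in HFD replicate 3 and lowest of the HFD libraries in replicate 2, as for Ms4a7 and Ms4a6d. Of 10 markers of lipid-associated macrophages, 8 were higher and 0 lower, with a median of 5.0. Among 10 markers of resident macrophages 0 were called in either direction by edgeR, with 4 higher and 4 lower at an unadjusted p-value under 0.05 and 4 higher and 3 lower by DESeq2, and their median was -0.23. Calls of general macrophage markers numbered 4 without ND replicate 1, without ND replicate 2 or without HFD replicate 1, 6 without ND replicate 3 and 11 without HFD replicate 2. Those of lipid-associated macrophage markers stayed between 6 and 9 when any library was left out, and 3 resident macrophage markers were higher and 3 lower without HFD replicate 2, and 1 was lower without HFD replicate 3. The part of macrophage number in the members' values was not tested.

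The log2 ratio of each member to the mean of the 13 general macrophage markers was taken within each library. These markers differed among themselves, with log2 fold changes from -0.02 for Mertk to 3.72 for Cd68. Those of Adgre1 (2.91), Mpeg1 (3.38) and Cd68 were above those of Ms4a7 and Ms4a6d, and those of the remaining markers were below. The ratios thus hold for the mean of the list and not for each marker. Ms4a7 had ratios of -2.88, -2.98 and -2.87 on ND against -1.90, -2.29 and -1.48 on HFD, a difference of 1.02 on the log2 scale, and Ms4a6d had a difference of 0.88. For both genes every HFD library was above every ND library. Ms4a14 differed by 0.08 (exact p = 0.9). The ratios of Ms4a6c, Ms4a6b, Ms4a4b, Ms4a4c, Ms4a8a and Ms4a4d were lower in every HFD library than in any ND library, by differences of -0.33, -0.90, -0.96, -0.99, -1.56 and -1.73 in this order, and Ms4a4a differed by -0.65 with an overlap (exact p = 0.2). For the 8 members without an overlap the exact permutation p was 0.1, or 0.125 after Benjamini-Hochberg adjustment over the 10 members, and 0.1 is the smallest that 3 against 3 allows. Against the 10 resident macrophage markers in place of the general ones, the differences were 2.70 for Ms4a7 and 2.56 for Ms4a6d, and those of Ms4a6c, Ms4a4a, Ms4a6b, Ms4a4b, Ms4a4c and Ms4a8a turned positive, at 1.35, 1.03, 0.78, 0.72, 0.69 and 0.12. The sign of these 6 ratios thus depended on which of these lists was used. With both lists Ms4a7, Ms4a6d and Ms4a14 were above 0 and Ms4a4d below 0, Ms4a4d by -0.04 with the resident markers. Ratios to the lipid-associated macrophage markers were not taken. The median log2 fold change of that list, 5.0, was above the value of every member, so the signs hold for the lists used only.

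**Figure D3:**
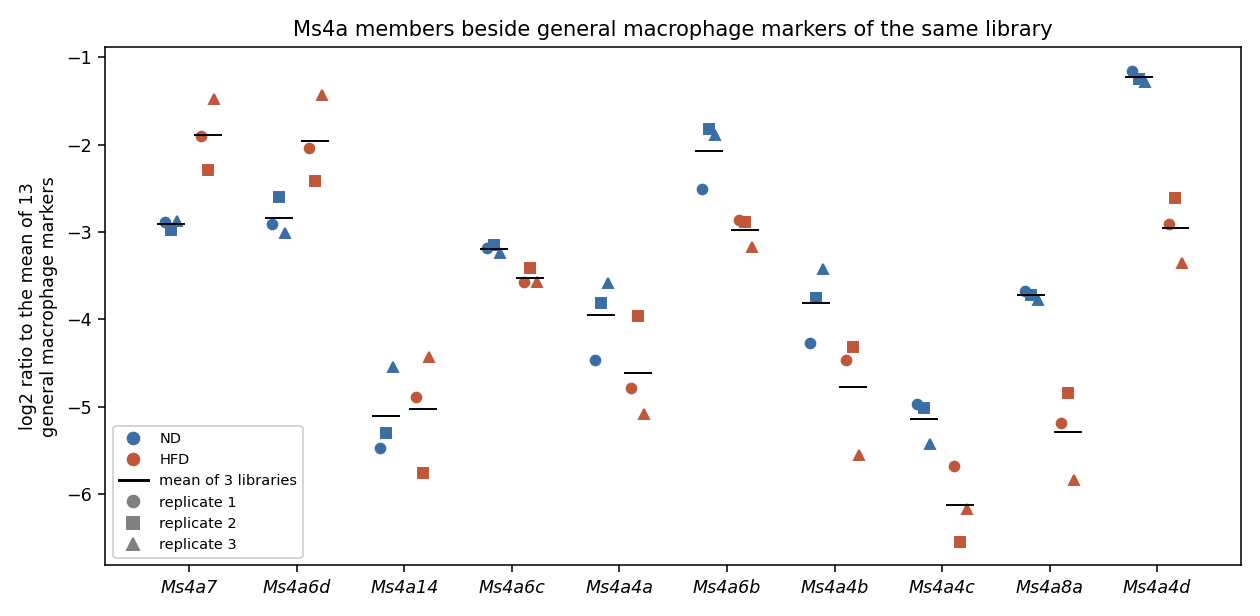
log2 ratio of each Ms4a member to the mean of 13 general macrophage markers in the same library; each point is a library, its shape the replicate number, and the line the mean of 3. The HFD points of Ms4a7 and Ms4a6d lie above their ND points, those of Ms4a14 and Ms4a4a overlap with ND, and those of the other 6 members lie below.

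Markers of other cells that express MS4A genes were counted as well. Of 13 T and NK cell markers 1 was higher, the interleukin 7 receptor Il7r (log2 fold change 5.79), and 0 were lower, with a median of 0.14. Of 8 B cell markers 0 were called, with 0 at an unadjusted p-value under 0.05 by edgeR and 0 by DESeq2, and of 7 monocyte markers 0 were called, with 1 higher at an unadjusted p-value under 0.05 and 1 by DESeq2. Of 8 mast cell markers 1 was higher, the prostaglandin D synthase Hpgds (log2 fold change 3.92), with a median of 1.62. At an unadjusted p-value under 0.05 there were 5 mast cell markers higher, and DESeq2 also called 5, as did edgeR without HFD replicate 2. Of 4 tested neutrophil markers 2 were higher and 1 was lower, but 0 were called higher without ND replicate 1, 2 or 3, without HFD replicate 1 or with the replicate number as a term. Of 10 adipocyte markers 3 were lower and 0 higher, the adipokine genes Cfd and Retn and the glucose transporter gene Slc2a4, with log2 fold changes of -3.42, -2.05 and -1.42, and the summed level of the list ranged from 34160 to 44120 CPM on ND and from 11700 to 29470 CPM on HFD. The adipocyte calls were 0 without ND replicate 1, 2 or 3, without HFD replicate 1 and without a filter on low counts, 5 by DESeq2 and 6 without HFD replicate 2. Mesenchymal progenitor markers (8 tested), endothelial and lymphatic markers (7) and epithelial markers (3) had 0 calls by edgeR. At an unadjusted p-value under 0.05 these had 0, 2 lower and 1 lower, and by DESeq2 0, 2 lower and 0. Without HFD replicate 2, edgeR called 3 endothelial and lymphatic markers lower and 1 monocyte marker higher.

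**Figure D4:**
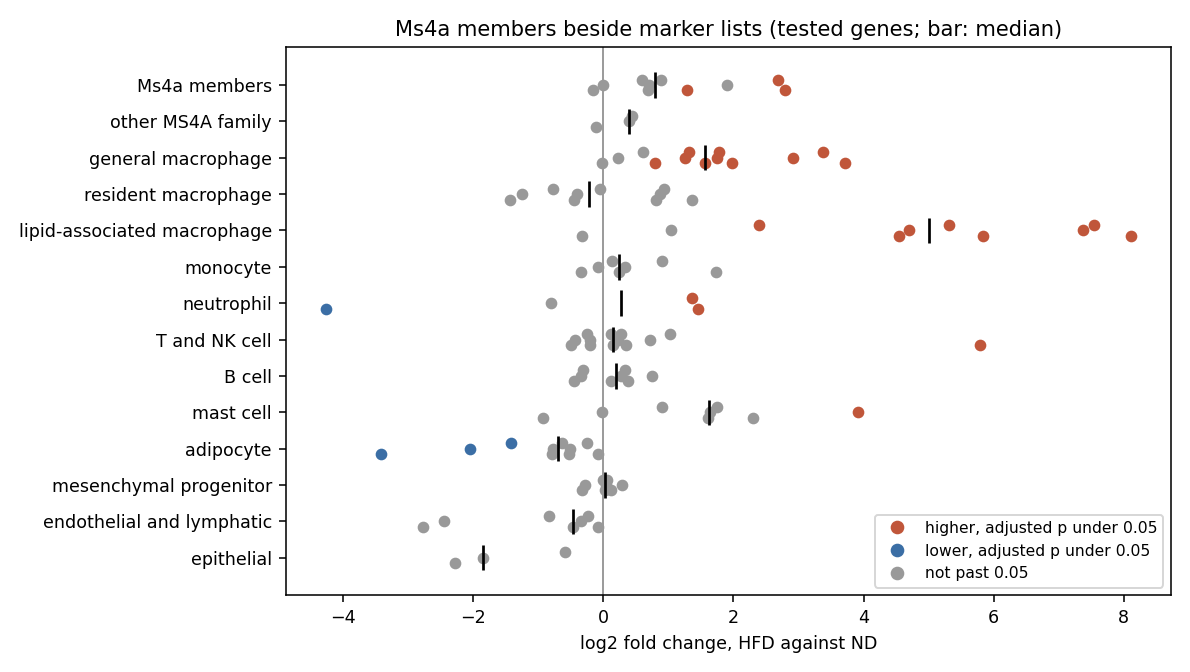
log2 fold change (HFD against ND) of the tested genes of each list; each point is a gene, red if higher and blue if lower at an adjusted p-value under 0.05 by edgeR, and the bar is the median of the list. The median of the Ms4a members, 0.79, lies between those of the general macrophage markers, 1.57, and the other MS4A family genes, 0.39.

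Most of the other MS4A genes had few counts in this tissue, except for the related Tmem176a and Tmem176b. Of 14 further family genes looked for, 11 were in the table, 8 had a count and 3 had enough counts to be tested. Of these, 0 were called by edgeR, 1 was higher at an unadjusted p-value under 0.05, 0 were called by DESeq2 and 1 by edgeR without HFD replicate 2. Without a filter on low counts edgeR called 1 of the family genes higher. Ms4a1 was read 37, 82 and 23 times on ND against 109, 49 and 24 times on HFD, with the highest value on each diet over 3 times the lowest (log2 fold change 0.39, edgeR adjusted p = 0.720). Ms4a2 was read 2, 0 and 4 times on ND against 17, 9 and 23 times on HFD, and all HFD libraries were above all ND libraries. Its counts were too few for the filter of the main edgeR test. Tmem176a had between 861 and 1522 counts in a library and Tmem176b between 2044 and 2929, with log2 fold changes of 0.44 and -0.11 (edgeR adjusted p = 0.0906 and 0.553). Ms4a10, Ms4a12, Ms4a13 and Ms4a18 had at most 1 count in a library, and Ms4a3, Ms4a5 and Ms4a15 had 0 counts in all 6.

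The members with the largest fold changes were not all next to each other on the chromosome. Ms4a7 and Ms4a14, whose start lay at -21.69 kb from that of Ms4a7, had the first and the third largest fold change of the members, while Ms4a6d, with the second largest, lay 268.7 kb from Ms4a7 at the far end, next to Ms4a4d. Ms4a14 did not pass the threshold, and its diets overlapped. The span held 17 further genes, of which 3 had enough counts to be tested, Ms4a1, Gm8369 and BE692007, and BE692007 was higher. Within 300 kb outside the span 9 genes were tested, and 3 were higher and 0 lower, Cd6, Slc15a3 and Tmem132a, with log2 fold changes of 1.29, 4.0 and 1.62 (edgeR adjusted p = 0.0433, 0.00344 and 0.00724). These 3 were named after their values were seen. The nearest tested gene on either side of the span, AW112010 and Mrpl16, had log2 fold changes of -0.30 and -0.28 (edgeR adjusted p = 0.298 and 0.273).

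**Figure D5:**
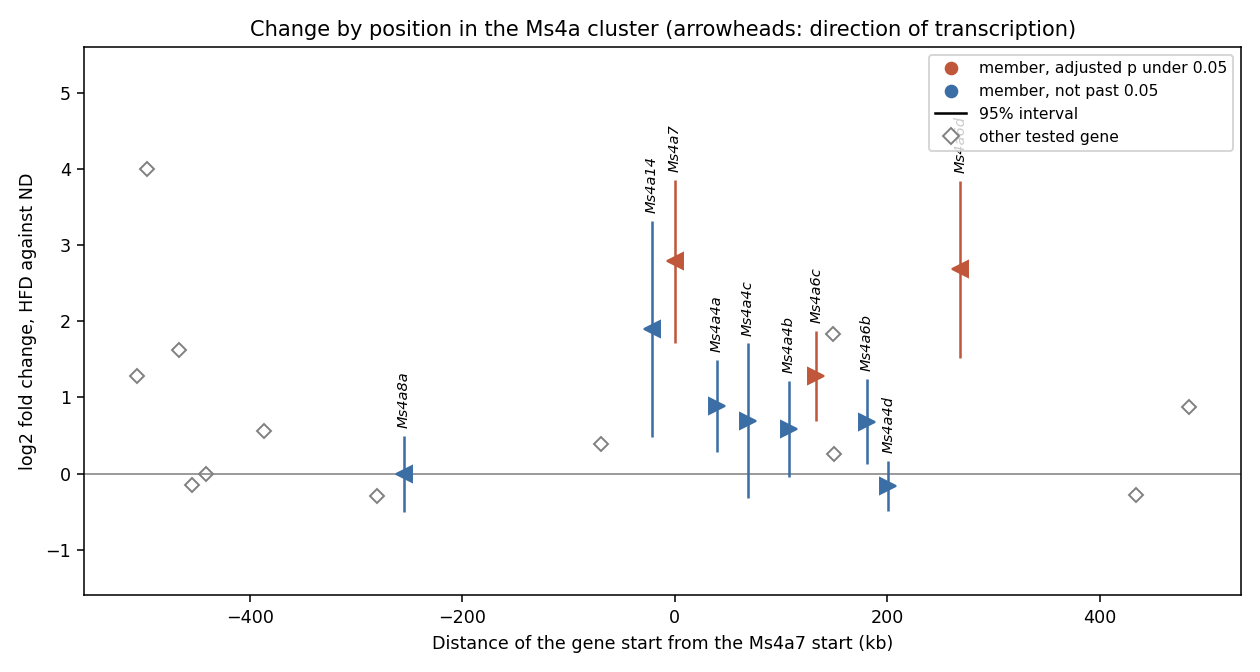
log2 fold change (HFD against ND) of the tested genes of the Ms4a cluster and its surroundings against the distance of the gene start from that of Ms4a7 (kb). Arrowheads are Ms4a members, pointing in the direction of transcription, vertical lines their 95% intervals, red an adjusted p-value under 0.05 by edgeR, and diamonds other genes; the red members, Ms4a7, Ms4a6c and Ms4a6d, are separated by members that did not pass the threshold.

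Promoters from RefSeq (GRCm38.p6), which reach from 250 bases before to 50 bases after a start site, were found for 9 of the 10 members, with 2 start sites for Ms4a7. Ms4a6d had none in the table used. The 250 bases upstream are printed for Ms4a7 and its neighbour Ms4a14, which was not called, and for Ms4a6c and Ms4a6b. The upstream sequences of Ms4a6c and Ms4a6b were 85.1% identical over 175 aligned bases, while only Ms4a6c was called. The 95% intervals of their log2 fold changes overlapped, 0.696 to 1.87 for Ms4a6c and 0.123 to 1.24 for Ms4a6b. A difference between these genes was not tested. Ms4a7 is given at its gene start, chr19:11336147-11336396, and Ms4a14 at chr19:11314455-11314704, both on the minus strand. Ms4a6c is at chr19:11469118-11469367 and Ms4a6b at chr19:11518309-11518558, both on the plus strand. Capitals mark matches to the motifs searched on both strands.
Ms4a7: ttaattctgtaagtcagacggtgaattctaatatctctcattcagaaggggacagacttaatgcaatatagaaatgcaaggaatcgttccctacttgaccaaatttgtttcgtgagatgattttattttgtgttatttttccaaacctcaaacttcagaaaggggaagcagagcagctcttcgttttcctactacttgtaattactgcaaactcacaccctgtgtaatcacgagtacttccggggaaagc
Ms4a14: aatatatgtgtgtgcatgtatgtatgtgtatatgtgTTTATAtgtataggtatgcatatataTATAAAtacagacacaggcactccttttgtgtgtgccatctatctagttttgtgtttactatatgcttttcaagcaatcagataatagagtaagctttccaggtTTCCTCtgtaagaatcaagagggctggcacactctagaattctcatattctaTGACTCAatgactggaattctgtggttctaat
Ms4a6c: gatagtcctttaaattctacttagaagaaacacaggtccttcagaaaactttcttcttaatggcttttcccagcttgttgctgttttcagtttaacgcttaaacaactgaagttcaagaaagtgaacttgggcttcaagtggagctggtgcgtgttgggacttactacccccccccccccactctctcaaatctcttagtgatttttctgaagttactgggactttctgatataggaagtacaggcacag
Ms4a6b: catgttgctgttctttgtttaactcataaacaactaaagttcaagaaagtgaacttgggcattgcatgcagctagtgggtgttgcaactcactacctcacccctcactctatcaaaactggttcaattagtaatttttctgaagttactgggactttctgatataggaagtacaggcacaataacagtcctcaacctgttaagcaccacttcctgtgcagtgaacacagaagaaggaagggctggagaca
The letters GAGGAA, a sequence bound by the macrophage and B cell factor PU.1, occurred in the promoters of 4 of the 9 members. These were Ms4a14, Ms4a4b, Ms4a4c and Ms4a7, and the letters occurred in 28.3% of 32817 mouse promoters of the same length. In Ms4a7 the letters began at position 44 after the start, outside the printed bases. Other sequences that PU.1 can bind were not searched. AP-1 letters, TGANTCA, occurred in Ms4a14, Ms4a4b, Ms4a8a and the second start site of Ms4a7, and in 7.81% of all promoters. TATAAA was found in Ms4a14 and Ms4a4b, against 13.6% of all promoters, and the C/EBP letters TTGCNNAA in Ms4a4d, against 10.8%. The interferon-stimulated element (3.43% of all promoters) and the TFEB and MITF letters TCACGTG (3.76%) were in none of the 9. The AP-1 letters read the same on both strands, matches of different motifs did not overlap in the members, and a match is a description of the sequence.

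The genes whose pattern over the 6 libraries was nearest to that of a member were found among the 12515 protein-coding genes whose average log2 CPM was above 1, as the smallest root mean square difference of log2 CPM after each gene was centred on its mean. Nearest to Ms4a7 were Nckap1l, Gpr137b and Tyrobp, with differences of 0.0723, 0.0987 and 0.103. For Ms4a6d they were Hmga1, Pstpip1 and Tnfaip2, at 0.107, 0.131 and 0.135, and for Ms4a6c they were Pip4k2a, Prex1 and Rab3il1, at 0.0603, 0.0708 and 0.0711. Ms4a14 had no gene as near, its first 3 being Hspa1a, Dok3 and Tfec at 0.175, 0.187 and 0.222. Nearest to Ms4a4a were Col16a1, Ago4 and Pycr1, and to Ms4a6b they were Mfsd13a, Syne3 and Pi4k2b. Ms4a4b was nearest to Adam22, Ninl and Nr4a3, Ms4a4c to Phf19, Slc13a3 and Kpna2, Ms4a4d to Nxn, Mta2 and Mex3b, and Ms4a8a to Trp53rka, Znfx1 and Mettl14. These 6 points share libraries and diets, and the distances are a description.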

How the data were processed

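RNA-Seq of epididymal fat was analysed in 3 ND and 3 HFD samples, grouped by the diet in the sample labels. The authors deposited raw counts per gene and FPKM values (counts per length and library) for the same genes. The study's methods name TopHat and Cufflinks on GRCm38, whereas the submitters' processing notes name HISAT2 2.0.5, featureCounts 1.5.0-p3, DESeq2 1.20.0 and a human build. The identifiers are of mouse, and which of the tools made the counts is not settled. A 50-base word shared with another gene could be lost or misassigned in either case. HFD was compared with ND by edgeR 4.0.16 (R 4.3.3) with TMM normalization, filterByExpr, glmQLFit with robust=TRUE and diet as the only factor. CPM uses TMM-scaled library sizes, standard errors derive from the F statistic, and 95% intervals use its t quantile. Library totals, from 16996896 to 18859320, limit low genes, and the floor of 3 counts covers counting error only. Shares, sums and ratios were tested with exact permutation tests over the 20 arrangements of 3 against 3. Ratios used log2 CPM with a prior count of 0.5. As alternatives, limma-voom (limma 3.58.1), DESeq2 1.42.0, other normalizations and filters, robust=FALSE, a block for the replicate number, limma on log2(FPKM + 1) and log2(FPKM + 0.1) for FPKM of at least 0.5 in 3 libraries, the former also unfiltered, each library left out, and shares of counts were run. The edgeR, DESeq2 and limma-voom fits were checked on simulated data in which 200 genes were changed. The permutation tests, the fits on FPKM and the other alternatives were not checked in this way. The genes named are the members, the other family genes in the table, called or first genes of each list, tested neighbours and the 3 nearest in pattern, with exceptions stated where they are named. The members and lists were chosen with earlier results of these data known.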

Additional observations from a re-analysis of the deposited data

How the results depend on the processing

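The count of members called higher, 3 by edgeR, was 5 with DESeq2 and 0 with limma on unfiltered log2(FPKM + 1), where 5 members had an unadjusted p-value under 0.05, and it ranged from 0 to 5 when 1 library was left out. It was 2 without a filter on low counts, 4 on filtered FPKM values with either pseudocount, and 3 with limma-voom, both other normalizations, the stricter filter and robust=FALSE. In the 17 alternatives 0 members were called lower, with 0 lower at an unadjusted p-value under 0.05 in each. Over all genes the 2503 calls became 3961 with DESeq2 and 579 on unfiltered FPKM values, and ranged from 474 without HFD replicate 1 to 3940 without HFD replicate 2. Ms4a7 was called in 14 of the 17 alternatives, Ms4a6c in 12, Ms4a6d in 11, Ms4a4a in 3, Ms4a14 in 2, Ms4a6b in 1 and the other 4 in 0. Ms4a8a, at a log2 fold change of 0.00, was 0.0019 with limma-voom, and from -0.0728 to 0.0726 when 1 library was left out (0.04 without HFD replicate 2). The difference in the share of Ms4a4a, -0.72 percentage points, was 0.736 without ND replicate 3, 0.0490 without HFD replicate 1 and 1.33 without HFD replicate 3, with a lowest value of -3.54 without HFD replicate 2. The ratio of Ms4a14 to the general macrophage markers, 0.08, was -0.10 without ND replicate 1, -0.02 without ND replicate 2 and -0.22 without HFD replicate 3, with a highest value of 0.444 without HFD replicate 2. With resident macrophage markers the ratios of Ms4a4a, Ms4a4b, Ms4a4c, Ms4a6b, Ms4a6c and Ms4a8a reversed to 1.03, 0.72, 0.69, 0.78, 1.35 and 0.12. The cause was not tested. With the replicate number added as a replicate block, 1886 genes were called, 1693 of them shared with the fit without it, and 3 members, Ms4a7, Ms4a6d and Ms4a6c, were higher. The deviations of same-numbered libraries correlated at -0.0945, -0.0587 and -0.00245. These values gave no sign that the numbers pair the samples, but with 3 libraries a diet they cannot exclude it.

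With 3 libraries a diet, no exact test of a single value can pass 0.05, and a p-value that misses the threshold does not show equal levels. Counts under 100 limit Ms4a8a and Ms4a4c, in all 6 libraries, and Ms4a14, Ms4a4b and Ms4a4a in some. FPKM compares genes by a length that the authors' processing set.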
